A study of Rattus norvegicus with 8 samples.

Results

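GABA-A receptor subunit transcripts were followed in the rat hippocampus with the array probes whose gene name, once a suffix was removed, was Gabra2, Gabra3, Gabra4, Gabra5, Gabrb1, Gabrb2 or Gabrd. Of these 7 genes 6 had a probe, among 12552 genes and unnamed probes in all, and they took up 9 of the array's 15207 rat probes. All 9 were well above background on all 8 arrays. Gabra2 is named only and was not analysed here. The 9 spots carry 6 distinct sequences, since the Gabra4, Gabrb2 and Gabrd sequences each stand on 2 spots under different probe names.

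Whole hippocampi were taken from rats 2 months old. In the fluoxetine group, called PNFLX, the pups had been dosed with the serotonin reuptake inhibitor fluoxetine at 10 mg/kg, starting on postnatal day 2 and ending on day 21 by the treatment protocol. In the control group the pups had been given the vehicle, sucrose in solution at 5%, over the same days. Each group had 4 samples, each on 1 single-colour Agilent array. The sample descriptions instead give end days that increase by accession, up to 28 for PNFLX 4; the day of the protocol was used. Strain, sex and litter are not given in the sources used here. Nothing in the labels states that the numbered samples of a group are from different animals, so p-values measure the spread between these samples only. Whole tissue mixes all hippocampal fields and cell types, and fewer cells of a type and less RNA per cell cannot be told apart.

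GABA-A receptors are chloride channels opened by GABA, the main inhibitory transmitter of the adult brain. Each is built from a ring of subunits, usually alpha and beta subunits, which form the GABA site between them, with a gamma or a delta subunit. Receptors with a gamma subunit cluster mainly at synapses and carry fast inhibition, while receptors of alpha4 with delta, abundant on dentate granule cells, and of alpha5, abundant on CA1 and CA3 pyramidal cells, lie largely outside synapses and carry a steady tonic current. Receptors with delta are especially sensitive to neurosteroids.

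The probe sequences are shown because every value for a subunit rests on 1 sequence of 60 bases, and because spots of 1 sequence serve below as repeats within an array. Capitals mark the longest run that the probe shares with a probe of another GABA-A subunit analysed here, between 7 and 9 bases long. The run is shared with a Gabrr3 probe for Gabra3 and Gabra5, with Gabrq for Gabra4 and Gabrb2, and with Gabrg3 for Gabrb1. All are given from their 5′ end as in the scanner files.
Gabra3: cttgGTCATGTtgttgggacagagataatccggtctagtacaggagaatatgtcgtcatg
Gabra4: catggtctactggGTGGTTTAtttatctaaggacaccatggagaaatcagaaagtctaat
Gabra5: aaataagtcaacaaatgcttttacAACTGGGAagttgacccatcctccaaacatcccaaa
Gabrb1: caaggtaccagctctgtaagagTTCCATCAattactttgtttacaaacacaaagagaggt
Gabrb2: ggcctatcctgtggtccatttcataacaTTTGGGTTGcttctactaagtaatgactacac

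Positions are those of the scanner files on rn4, with the strand taken from the order of the coordinates. The Gabra3 probe lies at chrX:158490096-158495925 on the minus strand, a span of 5830 bases for a probe of 60. Gabra4 (chr14:39124766-39124825, plus strand) and Gabrb1 (chr14:38532824-38532883, minus strand) lie on 1 chromosome. Gabra5 is at chr1:108922532-108922591 on the minus strand and Gabrb2 at chr10:27820323-27820382 on the plus strand. The Gabrd probe lies at chr5:172213695-172213755 on the minus strand. No exon annotation of rn4 was used. Each of the 5 printed probes has at least 1 forward reading frame without a stop codon.

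Values are log2 of the processed signal minus the log2 of the array's 75th percentile, so 0 means a spot as bright as that percentile. The 75th percentile was between 873.2 and 941.4 on PNFLX arrays and between 654.4 and 880.2 on control arrays, and 70.5% to 77.9% of an array's probes read well above background. The 8 arrays shared 1 slide and scan, and PNFLX filled 1 row of that slide and control the other: the effects of group and slide row cannot be told apart. All 11 measured pan-neuronal markers were well above background on every array, as were 9 of the 11 markers of hippocampal principal cells and fields that passed the filter; the filter asked for a spot well above background on at least 4 of 8 arrays. Of the 12 choroid plexus markers 6 passed. Their summed level, as linear signal relative to the 75th percentile, lay between 3.24 and 5.55 on PNFLX arrays and between 3.34 and 45.3 on control arrays, with control 4 highest. The 12 meningeal and fibroblast markers summed to 21.4 to 51.3 on PNFLX arrays and 17.5 to 23.4 on control arrays, with PNFLX 1 highest. The part of these cells in the values below was not tested.

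The spots kept much the same order of brightness on every array, which describes the probes and not the amounts of the transcripts, since probes differ in how well they bind. The Gabrb1 and Gabrd spots took the first 3 places on 8 of 8 arrays, except that Gabrd had 1 usable spot on PNFLX 3, where the next place went to Gabra4. The Gabra4 and Gabra5 spots followed, and the Gabrb2 and Gabra3 spots were the dimmest, with Gabra3 in the last place on every array. Neighbours in this order did not stay apart: the 3 leading spots exchanged places between arrays of 1 group, as did the Gabra4 and Gabra5 spots.

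**Figure D1:**
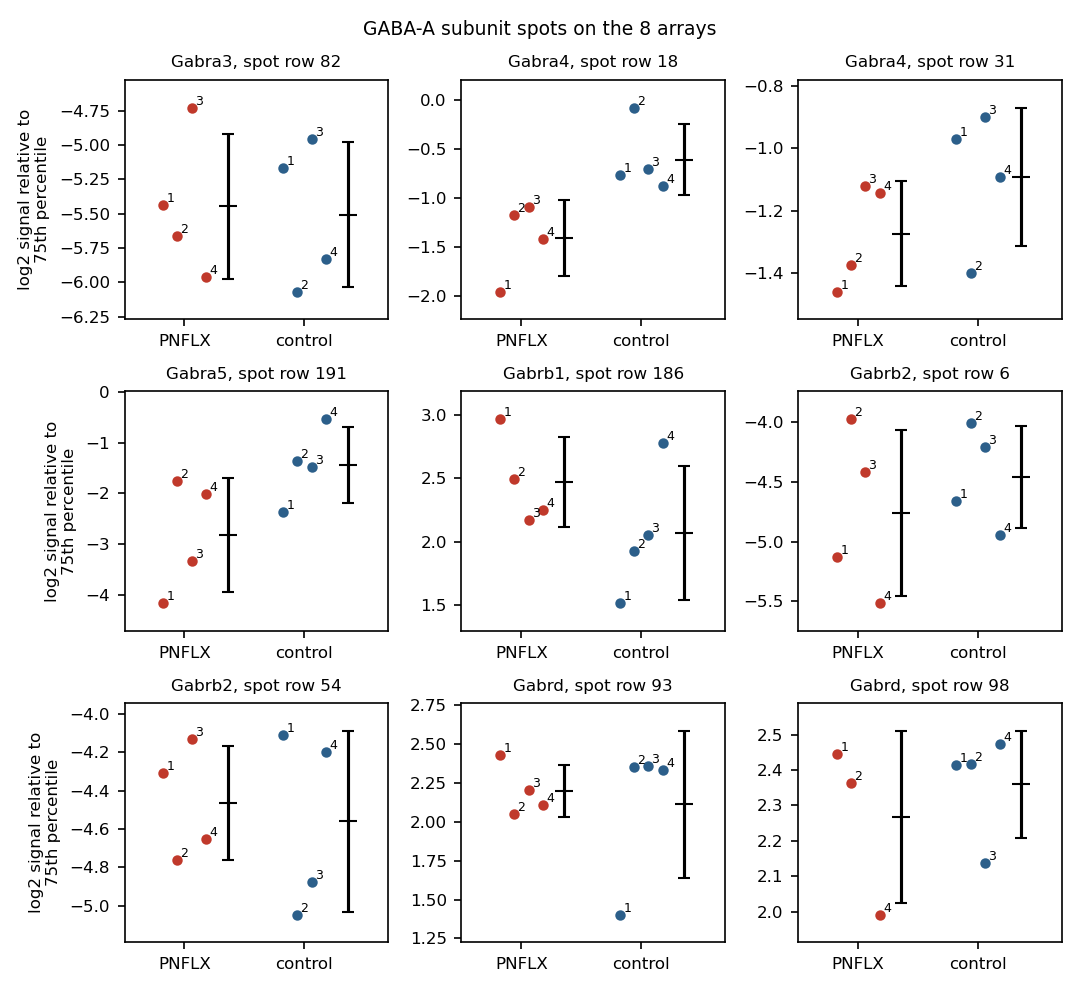
Log2 signal relative to the array's 75th percentile of the 9 GABA-A subunit spots, with 1 panel a spot, points numbered by replicate, PNFLX left and control right, and bars for the mean ± SD. The groups separate in the panel of the Gabra4 spot in row 18 and overlap in the other 8, and each panel has its own scale.

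The comparison asks whether early fluoxetine leaves subunit transcripts at another level in the adult hippocampus. The 3 estimates farthest from 0 were Gabra5 and 1 of the 2 Gabra4 spots, 2.62-fold and 1.74-fold lower in PNFLX, and Gabrb1 at a log2 difference of 0.40. Gabra3, Gabrb2 and Gabrd lay nearer 0, with estimates between -0.30 and 0.09. Between PNFLX and control, 0 of the 9 subunit spots passed the threshold of limma's test (Benjamini-Hochberg adjusted p under 0.05 over 11600 probes), against 0.672% of all probes tested, 0.371% higher and 0.302% lower in PNFLX. Their limma adjusted p-values ran from 0.242 to 0.957. At an unadjusted p under 0.05 there were 2, Gabra5 and the row 18 spot of Gabra4, both lower in PNFLX, where 12.5% of all probes lie under it and 7.4% are lower. The estimate was lower in PNFLX for 5 spots and higher for 4, and without scaling between arrays for 3 and 6. Over the processing alternatives the number of lower spots ran from 3 to 7. The share of all probes with a lower estimate was 54.5%. The median log2 difference, PNFLX minus control, was -0.09 over the 9 spots and -0.03 over all probes.

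Of the alpha subunits, alpha4 is the partner of delta in tonic receptors. The Gabra4 spot in row 18 of the array's 192 spot rows had -1.96, -1.18, -1.10 and -1.42 on PNFLX arrays 1 to 4, against -0.77, -0.08, -0.71 and -0.88 on control arrays 1 to 4. All 4 PNFLX values lay below all 4 control values, with PNFLX 1 lowest and control 2 highest. Such a separation with PNFLX lower held for 6.41% of all probes. The means were -1.41 ± 0.39 in PNFLX and -0.61 ± 0.36 in control (SD, n = 4 each), a log2 difference of -0.80 (SE 0.25, 95% interval -1.37 to -0.24, limma unadjusted p = 0.0112, adjusted p = 0.242). As a ratio, the signal was 1.74-fold lower in PNFLX, and the difference did not pass the threshold. Leaving out 1 array at a time gave estimates between -0.91, without PNFLX 3, and -0.62, without PNFLX 1.

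The second spot of the same Gabra4 sequence, in row 31, had -1.46, -1.37, -1.12 and -1.14 on PNFLX arrays, against -0.97, -1.40, -0.90 and -1.09 on control arrays. Here the groups overlapped, since control 2 was the second lowest of the 8. The means were -1.27 ± 0.17 in PNFLX and -1.09 ± 0.22 in control (SD, n = 4 each). The log2 difference was -0.18 (SE 0.16, 95% interval -0.55 to 0.18, limma adjusted p = 0.651). The array on which the spots parted most was control 2, where row 18 read 1.32 above row 31. On the other control arrays row 18 was higher by 0.19 to 0.21, and on PNFLX arrays row 18 minus row 31 ranged from -0.50 to 0.19.

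Averaged within each array, the Gabra4 sequence had -1.71, -1.28, -1.11 and -1.28 on PNFLX arrays, against -0.87, -0.74, -0.80 and -0.99 on control arrays. The averaged values of the groups did not overlap. Among single probes 6.41% separated with PNFLX lower, and the share among averaged sequences is not given here. The means of the averaged values were -1.34 ± 0.26 in PNFLX and -0.85 ± 0.10 in control (SD, n = 4 each). The log2 difference was -0.49 (SE 0.16, 95% interval -0.86 to -0.13, limma adjusted p = 0.259 over 9986 sequences), or 1.41-fold lower. This averaging was chosen after the data had been seen.

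Alpha5 forms extrasynaptic receptors on hippocampal pyramidal cells. The Gabra5 spot, in row 191, had -4.17, -1.76, -3.34 and -2.02 on PNFLX arrays, against -2.36, -1.36, -1.49 and -0.54 on control arrays. PNFLX 1 and PNFLX 3 were the lowest, control 4 the highest, and the groups overlapped through control 1. The means were -2.83 ± 1.13 in PNFLX and -1.44 ± 0.75 in control (SD, n = 4 each), the widest spread of the 9 spots in both groups. The log2 difference was -1.39 (SE 0.59, 95% interval -2.73 to -0.05, limma unadjusted p = 0.0441, adjusted p = 0.382), 2.62-fold lower as a ratio and not past the threshold. Without PNFLX 1 it was -0.94, without PNFLX 2 it was -1.74, and without control 4, the array with the most choroid plexus signal, it was -1.09.

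The Gabra5 spot stands in the last row but 1 of the array, where most probes read lower in PNFLX. Over all probes of row 191 the median difference was -1.31, and over those of row 192 it was -2.01. Among the 222 probes within 2 rows of the spot the median was -0.99, and 37.8% were lower than Gabra5. Their median absolute deviation, scaled by R's default to estimate an SD, was 1.22. After row and column medians were subtracted on each array the Gabra5 difference was 0.0019 (SE 0.73, limma adjusted p = 0.999). The row 18 spot of Gabra4 differed by -0.67 from the median of the 304 probes within 2 rows, of which 3.95% were lower. Those probes came from all columns, while the spot stands in column 6, so they do not describe its close surroundings. The nearest spot of a listed gene, Dlx5 in column 9 of row 18, was likewise highest on control 2. So were Cdh5 (row 15, column 8), Kctd12 (row 13, column 10) and Aif1 (row 9, column 9). Farther off, Arfgef2 in column 39 of row 16 was lowest on control 2. Without control 2 the row 18 difference of Gabra4 was -0.63 (SE 0.23, limma adjusted p = 0.390). After the same subtraction the row 18 difference of Gabra4 was -0.50 (SE 0.31, limma adjusted p = 0.644), and that of the row 31 spot was -0.036 (SE 0.19). The part of array position in either result was not tested further.

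**Figure D2:**
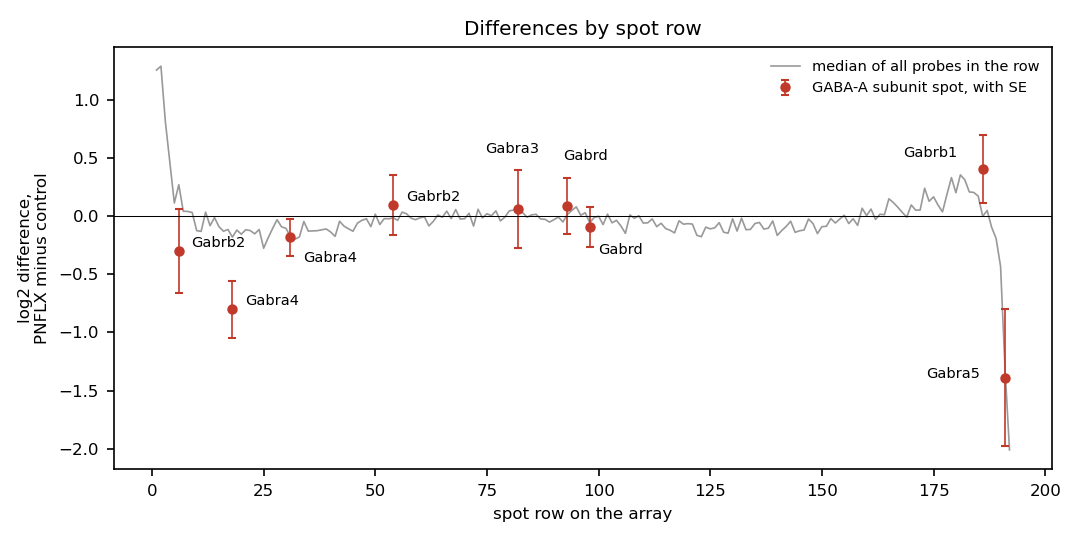
Log2 difference, PNFLX minus control, against the spot row on the array, with the median of all probes in each row as a line and the GABA-A subunit spots as points with SE bars. The row median was -1.31 in row 191, where the Gabra5 spot read -1.39, and the Gabra4 spot in row 18 read -0.80, where the median of probes within 2 rows was -0.13.

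Alpha3, a subunit better known from the developing forebrain and from monoamine neurons, gave the dimmest spot. The Gabra3 spot had -5.44, -5.67, -4.73 and -5.96 on PNFLX arrays, against -5.17, -6.07, -4.96 and -5.83 on control arrays. The groups lay over each other throughout, and replicate 3 was the highest of each group. The means were -5.45 ± 0.53 in PNFLX and -5.51 ± 0.53 in control (SD, n = 4 each), a log2 difference of 0.06 (SE 0.33, 95% interval -0.70 to 0.82, limma adjusted p = 0.957). The processed intensity was 15 to 32.9 on PNFLX arrays and 11.5 to 24.6 on control arrays.

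Of the beta subunits, which contribute to the GABA site and carry anchoring and phosphorylation sites in their intracellular loop, Gabrb1 was read on 1 bright spot. It had 2.97, 2.49, 2.17 and 2.25 on PNFLX arrays, against 1.51, 1.93, 2.06 and 2.78 on control arrays. All PNFLX arrays were above controls 1 to 3, and control 4 was above all but PNFLX 1. The means were 2.47 ± 0.36 in PNFLX and 2.07 ± 0.53 in control (SD, n = 4 each), a log2 difference of 0.40 (SE 0.29, 95% interval -0.26 to 1.07, limma adjusted p = 0.597). Within 2 rows of this spot, in row 186, the median difference of 285 probes was 0.09, and with 1 array left out the estimate ran from 0.22, without control 1, to 0.64, without control 4.

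Beta2 is part of the most abundant receptor type of the adult brain. The row 54 spot of Gabrb2 had -4.31, -4.76, -4.13 and -4.65 on PNFLX arrays, against -4.11, -5.05, -4.88 and -4.20 on control arrays. The row 6 spot of the same sequence had -5.13, -3.98, -4.42 and -5.51 on PNFLX arrays, against -4.66, -4.02, -4.21 and -4.95 on control arrays. The groups overlapped on both spots, and the spots did not rank the arrays alike: PNFLX 2 was the highest of all on row 6 and the lowest of its group on row 54. The log2 difference was 0.09 (SE 0.26, 95% interval -0.50 to 0.69, limma adjusted p = 0.897) on row 54, where the means were -4.46 ± 0.29 in PNFLX and -4.56 ± 0.47 in control (SD, n = 4 each). On row 6 it was -0.30 (SE 0.36, 95% interval -1.13 to 0.52, limma adjusted p = 0.750), with means of -4.76 ± 0.69 in PNFLX and -4.46 ± 0.42 in control. With 1 array left out the row 6 value ran from -0.56, without PNFLX 2, to -0.051, without PNFLX 4, and without scaling it was -0.0057. Their average within arrays gave -0.10 (SE 0.19, limma adjusted p = 0.840). Both spots were dim: over the 8 arrays the processed intensity was 20.4 to 59.7 on row 6 and 26 to 49.8 on row 54. With normexp background correction the differences were -0.77 on row 6 and -0.79 on row 54, where the median of all probes was -0.38.

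Delta, the subunit that marks tonic receptors of granule cells, was bright on both of its spots. The row 93 spot of Gabrd had 2.43, 2.05, 2.20 and 2.11 on PNFLX arrays, against 1.40, 2.35, 2.36 and 2.34 on control arrays. Control 1 stood apart as the lowest of the 8, and the other control arrays lay within the PNFLX range. The row 98 spot had 2.44, 2.36 and 1.99 on PNFLX arrays 1, 2 and 4, against 2.41, 2.42, 2.14 and 2.47 on control arrays. On that spot PNFLX 3 carried an outlier flag of the scanner software and was left out, and control 1 read 1.01 above its row 93 value. With the PNFLX 3 spot kept the row 98 difference was -0.44 (SE 0.33, limma adjusted p = 0.611). The log2 differences were 0.08 (SE 0.24, 95% interval -0.46 to 0.63, limma adjusted p = 0.900) on row 93 and -0.09 (SE 0.17, 95% interval -0.49 to 0.31, limma adjusted p = 0.842) on row 98. The means were 2.20 ± 0.17 in PNFLX and 2.11 ± 0.47 in control on row 93 (SD, n = 4 each), and 2.27 ± 0.24 in PNFLX (n = 3) and 2.36 ± 0.15 in control (n = 4) on row 98. Averaged within arrays the Gabrd difference was -0.01 (SE 0.16, 95% interval -0.38 to 0.35, limma adjusted p = 0.981), with PNFLX 3 read on row 93 alone.

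Alpha4 and delta join in 1 receptor type. The interval of the averaged Gabra4 difference ended below 0, but the difference did not pass the threshold (limma adjusted p = 0.259). That interval is not adjusted for the number of sequences, and 1238 of 9986 averaged sequences had an unadjusted limma p under 0.05. Of the single Gabra4 spots, the interval of row 18 ended below 0 and that of row 31 covered 0. The interval of the averaged Gabrd difference covered 0 as well. The difference between the genes was not tested, so these intervals do not show that alpha4 and delta differed.

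The pairs of spots show how far 2 readings of 1 sequence on the same arrays part. Over the 1488 such pairs on the array with both spots above the filter, the median absolute log2 difference between the spots of a pair was 0.17, with a 90th percentile of 0.88. The PNFLX minus control difference of a pair's spots differed by 0.22 in the median, with a 90th percentile of 0.94, and had the same sign in 63.0% of pairs. For Gabra4 the gap was 0.62, a size that 18.7% of the pairs exceeded, and both spots read lower in PNFLX. For Gabrb2 the gap was 0.40, exceeded by 30.0%, and for Gabrd 0.18, exceeded by 56.9%, both with opposite signs. Tested as a within-array difference, the gap had a limma adjusted p of 0.409 for Gabra4 (SE 0.30), 0.752 for Gabrb2 (SE 0.52) and 0.820 for Gabrd (SE 0.31), where 1.71% of 2158 probe pairs of 1 gene passed.

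**Figure D3:**
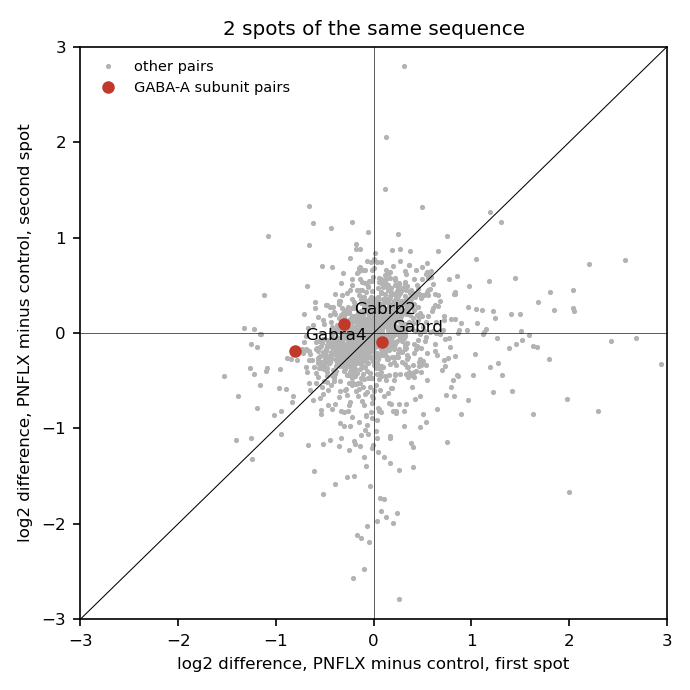
Log2 difference, PNFLX minus control, on the first spot of a sequence (horizontal) against the second (vertical), with a point for each of 1488 pairs, of which 16 lie outside the range drawn, and the diagonal where both would be equal. Gabra4 lies in the lower left with both spots below 0, while Gabrb2 and Gabrd have spots of opposite sign.

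No array stood apart on all subunits. PNFLX 1 was the lowest of the 8 arrays on 3 spots and the highest on 2, and PNFLX 4 the lowest on 2. Control 1 and control 2 were each the lowest on 2 spots and the highest on 1, and control 4 was the highest on 2.

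By the size of the difference between centred log2 profiles over the 8 arrays, the named genes closest to each subunit were found among at least 10537 probes. Row 18 of Gabra4 was closest to Enox1, at a root mean square difference of 0.17, and Slc35d1 at 0.22, against 0.52 for the spread of the Gabra4 profile itself. Gabra5 was closest to Timmdc1 at 0.32 and Atp4a at 0.47, with a spread of 1.08. For Gabrb1 the closest were Cald1 at 0.18 and Pkd1 at 0.22, for a spread of 0.44. Gabra3 had Fbxl19 at 0.15 and Oprd1 at 0.18, for 0.46, and Gabrb2 had Zfp358 at 0.15 and Fscn2 at 0.16, for 0.34. Gabrd, read on row 93, had Oxr1 at 0.10 and Rpsa at 0.11, for 0.31. These are descriptions over 8 arrays, chosen from many probes.

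**Figure D4:**
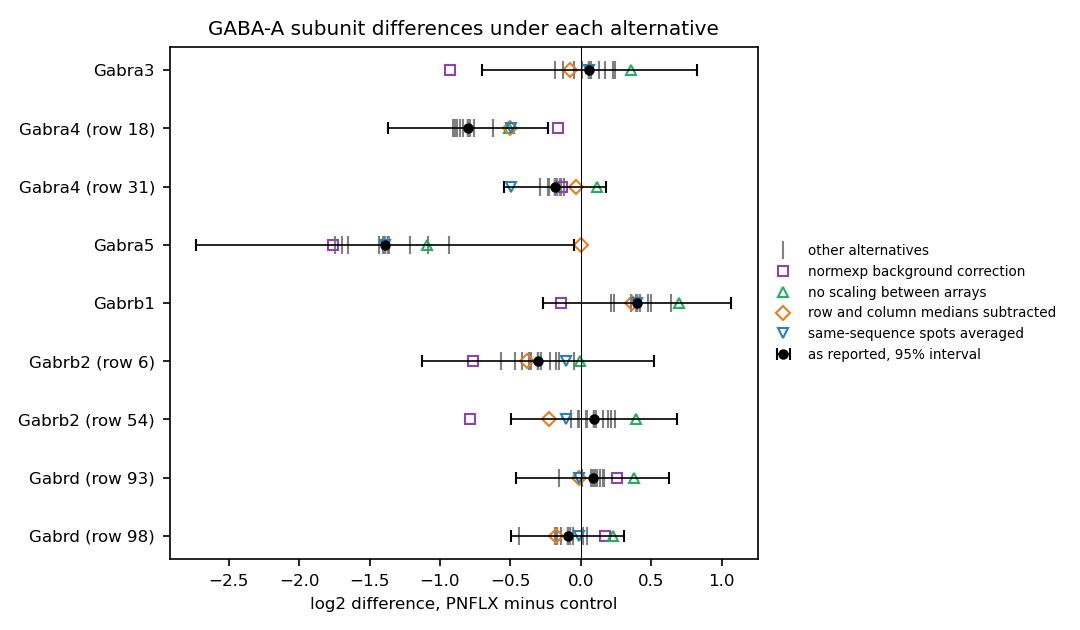
Log2 difference, PNFLX minus control, of each GABA-A subunit spot as reported (black, with the 95% interval) and under each alternative treatment of the data, with the marker types named in the legend. The row 18 spot of Gabra4 stays left of 0 throughout, from -0.91 to -0.16, while Gabra5 runs from -1.76 to 0.0019.

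Of the 10 other GABA-A subunit genes analysed here 5 passed the filter, with 3 higher and 2 lower in PNFLX and 0 past the threshold. Their median log2 difference was 0.07, against -0.04 over all 9442 genes by their brightest probe, of which 54 passed. Gabrq, the theta subunit, had 1.60, 1.52, 1.51 and 0.91 on PNFLX arrays, against 0.58, 1.06, 1.09 and 0.66 on control arrays. Only PNFLX 4 overlapped the controls, and the difference was 0.54 (SE 0.21, limma adjusted p = 0.344), while a second spot of the same Gabrq sequence gave -0.34 (SE 0.54). Averaged within arrays, the Gabrq sequence gave 0.10 (SE 0.30, limma adjusted p = 0.910). Gabrr2, a rho subunit known mainly from the retina, was well above background on 5 of 8 arrays, at -5.04 ± 0.90 in PNFLX and -4.37 ± 0.43 in control (SD, n = 4 each), a difference of -0.66 (SE 0.44, limma adjusted p = 0.562). Without PNFLX 2 it was -0.31, and without PNFLX 3 it was -0.98.

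Among genes of receptor clustering, trafficking and modulation 24 were measured, 14 higher and 10 lower, with 0 past the threshold and a median of 0.05. Arfgef2, an exchange factor that binds beta subunits on their way to the surface, was at 0.41 (SE 0.14, limma adjusted p = 0.296). Ubqln1, which stabilises receptors inside the cell, was at -0.47 (SE 0.17, limma adjusted p = 0.313). Their groups did not overlap, as for 10.7% of all probes.

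Of 9 genes of GABA synthesis, transport and breakdown 4 were higher and 5 lower, with 0 past the threshold and a median of -0.05. The vesicular GABA transporter Slc32a1 had 3.33, 3.27, 3.12 and 2.96 on PNFLX arrays, against 3.48, 4.06, 3.47 and 3.76 on control arrays, with no overlap, on a spot in row 6 (limma adjusted p = 0.275). The astrocytic transporter Slc6a11 was at -0.60 (SE 0.24, limma adjusted p = 0.362). Of 7 genes of GABA-B receptors and their partners 3 were higher and 4 lower, with 0 past the threshold and a median of -0.03. The auxiliary subunit Kctd12 had -2.97, -4.61, -3.08 and -4.39 on PNFLX arrays, against -2.60, -1.43, -2.37 and -2.27 on control arrays. Those groups did not overlap, and the difference was -1.60 (SE 0.44, limma adjusted p = 0.186), on a spot in row 13. A separation with PNFLX lower, as for Kctd12 and Slc32a1, held for 6.41% of all probes. Both genes were highest on control 2, and the part of array position was not tested. The potassium channel Kcnj6, opened through GABA-B receptors, was at 0.28 (SE 0.15, limma adjusted p = 0.478).

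Chloride transporters and their kinases set the gradient on which the receptors act, and carbonic anhydrases make the bicarbonate that also passes the channel. Of 9 genes measured, 7 for chloride transport and its kinases and the carbonic anhydrases Car2 and Car7, 2 were higher and 7 lower in PNFLX, with 0 past the threshold and a median of -0.24. The anhydrases were at 0.27 for Car2 and -0.24 for Car7. The kinase Wnk1 was at -0.58 (SE 0.17, limma adjusted p = 0.229), and the potassium-chloride cotransporter Slc12a7 at -0.85 (SE 0.36, limma adjusted p = 0.381). The Slc12a7 value is that of the brightest of 3 probes, and averaging spots of the same sequence turned it to 0.39. Of 4 glycine receptor and transporter genes 3 were higher and 1 lower, with a median of 0.17 and 0 past the threshold. The transporters Slc6a5 and Slc6a9 were at 0.03 and -0.07. The receptor's beta subunit Glrb was at 0.72 (SE 0.26, limma adjusted p = 0.315) and the alpha subunit Glra2 at 0.30 (SE 0.17, limma adjusted p = 0.513). Of 4 measured genes of neurosteroid synthesis, whose products act on delta receptors, 1 was higher and 3 lower, with a median of -0.32 and 0 past the threshold. The reductases Srd5a1 and Srd5a2 were at -0.25 (SE 0.18, limma adjusted p = 0.607) and -0.41 (SE 0.28, limma adjusted p = 0.580).

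Of 18 interneuron markers 9 were higher and 9 lower, with a median of 0.00032 and 0 past the threshold. Calb1, the calcium buffer calbindin, also abundant in granule cells, was at 0.36 (SE 0.13, limma adjusted p = 0.332), and the neuregulin receptor Erbb4, well above background on only 4 of 8 arrays, at -0.65 (SE 0.25, limma adjusted p = 0.330). At limma's unadjusted p under 0.05 there was 1 gene of the other subunits, 2 of clustering and trafficking, 2 of synthesis and transport, 1 of GABA-B, 3 of chloride transport with the anhydrases, 1 of the glycine receptors and transporters, 0 of neurosteroid synthesis and 4 of the interneuron markers, against 1195 of all 9442 genes.

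**Figure D5:**
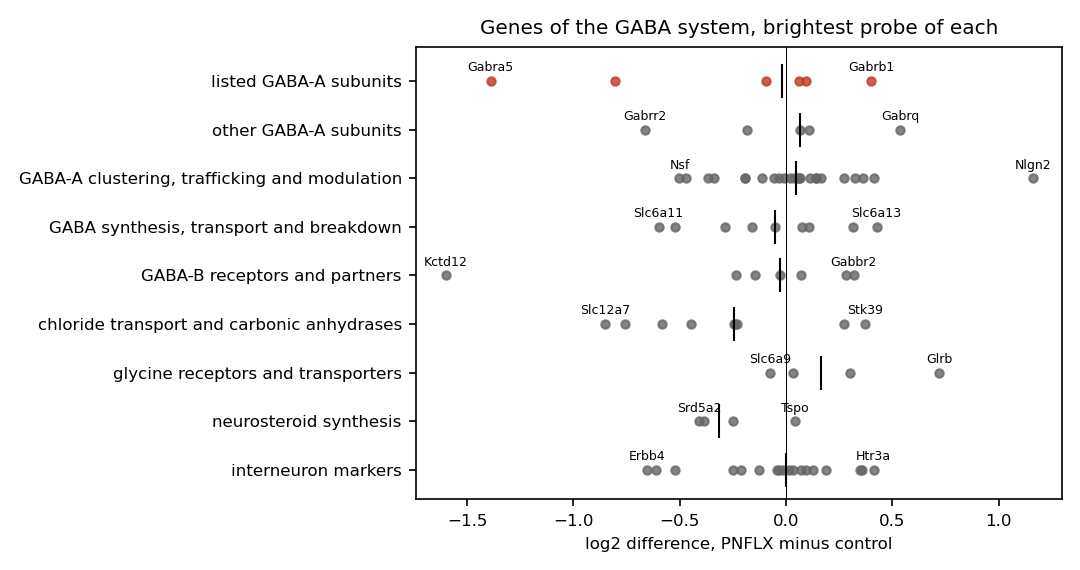
Log2 difference, PNFLX minus control, of the brightest probe of each gene in 9 lists, with a point a gene, a bar at the list's median and names on the lowest and highest gene of each list. The list medians lie between -0.32 for neurosteroid synthesis and 0.17 for glycine receptors and transporters, and no gene shown passed the threshold.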

How the data were processed

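RNA of 8 whole hippocampi samples, 4 PNFLX and 4 control, grouped by source name, was read on single-colour Cy3 arrays. The deposited intensity values are processed signals of Agilent Feature Extraction 10.5.1.1, per the file headers, with detrending within arrays and no scaling between them. The authors also deposited a log2 table, which matched the scanner values scaled to the 75th percentile and centred on the probe medians within 0.00242; its column medians were -0.13 to 0.10. Scale and centring are thus known from the values.

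Here each processed signal was put on the log2 scale and the log2 of its array's 75th percentile over 15207 probes was subtracted. Left out were 521 spots flagged as outliers. The 11600 probes with a spot well above background on 4 or more of 8 arrays were kept and compared with limma 3.58.1 in R 4.3.3 (Benjamini-Hochberg over all, threshold 0.05); every adjusted p of a gene comes from it. The fit was tested on simulated data. RefSeq's gene list for GRCr8 gave symbols, and no positions, to 14152 probes (11568 genes). A gene in a list is its brightest probe. Some genes of the subunit family are not reported here.

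All subunit probes are named, then the 2 genes of smallest p in each list, and for each subunit the 2 closest profiles over 8 arrays with no missing spot; for Gabrd the brighter spot lacked an array, so row 93 served. The members and lists were chosen with earlier results of these data known. Alternatives covered background correction, scaling, filters, flags, probe choice, array position, the deposited table, the replicate block, variance settings and each array left out. The averaging of same-sequence spots, and for pairs of spots the left-out arrays and the block, were added after the data were seen. Precision is limited by 4 arrays a group.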

Additional observations from a re-analysis of the deposited data

Results flagged for a closer look

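Of 49 groups of 4 arrays tested, over the probes named by rule, 5 had 1 array far from the other 3 by a gap test that chance meets in about 1 of 20 groups; other genes of the lists were not tested for such gaps. For Gabrd on the row 93 spot, control 1 was at 1.40, and the nearest control at 2.34. For Gabrq, PNFLX 4 was at 0.91, and the nearest PNFLX array at 1.51. For Gabrr2, control 4 was at -5.00, and the nearest control at -4.22. Arfgef2 was at 0.16 on control 2, with the nearest control at 0.30, and Slc6a11 at -3.49 on control 2, with the nearest control at -2.82. All values are log2 signals relative to the array's 75th percentile.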

How the results depend on the processing

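Under all 22 alternatives 0 of the GABA-A subunit spots passed limma's threshold; the lowest limma adjusted p over 194 values was 0.133, for Gabra5 with normexp background correction, and 21 values turned direction. The row 18 spot of Gabra4 kept its direction under all 22, from -0.91 to -0.16 (limma adjusted p 0.177 to 0.780). Many of these could not change its estimate of -0.80: the filters, flags, brightest probe, end rows, deposited table, block and variance settings. The smallest value, -0.16, came with normexp, where the median of all probes was lower, at -0.38. Spots lower in PNFLX numbered 5 of 9 as reported, 3 of 9 without scaling, 3 of 6 with the brightest probe per gene, 7 of 9 with normexp and with row and column subtraction, and 4 to 7 with 1 array left out. All probes past the threshold numbered 78 as reported, 50 with normexp, 143 without scaling, 46 without the filter, 47 with a filter on all 8 arrays, 48 with the brightest probe per gene, 23 after row and column subtraction, 13 with the replicate block and 0 without the first and last 5 spot rows (1261 at an unadjusted limma p under 0.05). Leaving out 1 array gave 33 to 104, with 33 to 50 without any 1 of the 4 controls or of PNFLX 1, 2 and 4. Without scaling the median of all probes was 0.26, and with normexp -0.38.

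Directions turned with normexp for Gabra3 (-0.93), Gabrb1 (-0.14), Gabrb2 on row 54 (-0.79), Gabrd on row 98 (0.18), Ubqln1 (0.083), Slc32a1 (0.44), Glra2 (-0.52), Glrb (-0.022) and the Gabrb2 spot pair (-0.022). Without scaling they turned for the row 31 spot of Gabra4 (0.11), the row 98 spot of Gabrd (0.23) and Srd5a1 (0.049), and with median scaling for Gabrd on row 98 (0.015). Row and column subtraction turned Gabra3 (-0.076), Gabra5 (0.0019), Gabrb2 on row 54 (-0.22) and Gabrd on row 93 (-0.016). Averaging same-sequence spots turned Gabrb2 on row 54 (-0.10), Gabrd on row 93 (-0.012) and Slc12a7 (0.39). With 1 array left out, Gabra3 ran from -0.18 to 0.24, Gabrb2 on row 54 from -0.068 to 0.24, Gabrd on row 93 from -0.15 to 0.17 and on row 98 from -0.18 to 0.044 (-0.44 with the outlier-flagged spot kept), Gabrb2 on row 6 from -0.56 to -0.051, Gabrb1 from 0.22 to 0.64, and the Gabrd spot pair from -0.33 to 0.079. The causes were not tested. Same-numbered PNFLX and control arrays correlated at 0.01, 0.08, 0.09 and 0.02, and differently numbered ones at -0.08 to 0.03. The numbers were not taken as pairs, though the highest correlations were between same-numbered arrays. With the block, 0 subunit spots were called. Gabra4 on row 18 was at -0.80 (limma adjusted p 0.291) and Gabra5 at -1.39 (limma adjusted p 0.245). The block lowered the SE of Gabra5 from 0.59 to 0.29 and raised that of Gabrb1 from 0.29 to 0.34. Gabra5 has no value without the end rows, nor have the dimmer spots with the brightest probe per gene.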
